A study of Mus musculus with 6 samples.

Results

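The data described here are the levels of 52 genes of the Wnt pathway in satellite cells, the stem cells that repair skeletal muscle. The set was taken up with earlier results of these data known, and the rule that fills it reads only the gene symbol: every Wnt, Frizzled (Fzd), Sfrp, Dkk and R-spondin (Rspo) gene, together with Axin1, Axin2, Lrp5, Lrp6, Lef1, Ctnnb1, Wif1, Nkd1 and the genes whose symbols begin with Tcf7. The rule took 65 of the 55681 probes and 52 of the 36370 genes of the array. In 43 of the 52 genes at least 1 probe was well above background on 3 or more of the 6 arrays, and these 43 are called measured below, among 32067 measured genes in all.

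Satellite cells came from male C57BL/6 mice and were sorted from dissociated muscle as positive for integrin alpha7 and CD34 and negative for CD31, CD45, CD11b and Sca1. The young group held 3 samples, from animals aged 3 months (replicates 1 and 3) and 2 months (replicate 2), and the adult group held 3 samples from animals aged 6 months. The labels name no treatment and no engineered allele, and they call the samples biological replicates without giving the number of mice behind each. The amplified RNA of each sample was read on 1 single-colour array, and the comparison of adult with young asked how gene expression in satellite cells differs between these ages.

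Wnt proteins are secreted, lipid-modified ligands that bind Frizzled receptors, often together with the co-receptors Lrp5 and Lrp6. In the canonical branch this binding protects beta-catenin (Ctnnb1) from a destruction complex built on Axin, and beta-catenin then joins the DNA-binding factors of the TCF and LEF family; other branches act on cell polarity and calcium. Sfrp proteins and Wif1 bind the ligands, Dkk proteins act on the Lrp co-receptors, and R-spondins raise the amount of Frizzled at the membrane. In muscle, the pathway is known for roles in satellite cell quiescence, symmetric expansion and the onset of differentiation.

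Levels are given as log2 of the signal relative to the 75th percentile of all probes on the same array, and differences as adult minus young, so that positive values mean higher in adult. Levels of different probes are not comparable with each other. A gene passed the test when its limma p-value, adjusted over all 32067 genes, was under 0.05. Of the measured Wnt pathway genes, 6 of 43 rose in adult cells (Wnt2, Wnt10b, Sfrp4, Wnt8b, Wnt6 and Wnt11), 3 fell (Wnt9a, Fzd2 and Fzd1) and 34 did not pass. Wnt2 is counted with a reservation: it passed the filter through its adult arrays alone, and its test rests on young readings below the background limit. Over all genes 28.5% passed, 20.0% higher and 8.43% lower. Genes with a gene symbol are here the 17431 whose symbol is in the GRCm38.p6 gene table, without names of the Gm, LOC, Rik, Mir and linc kinds. Of these 27.0% passed, 14.8% higher and 12.2% lower. The share of Wnt pathway genes that passed, 20.93%, was thus not above the background. The 6 that rose are 5 ligands and 1 antagonist, and the 3 that fell are 1 ligand and 2 Frizzled receptors.

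**Figure D1:**
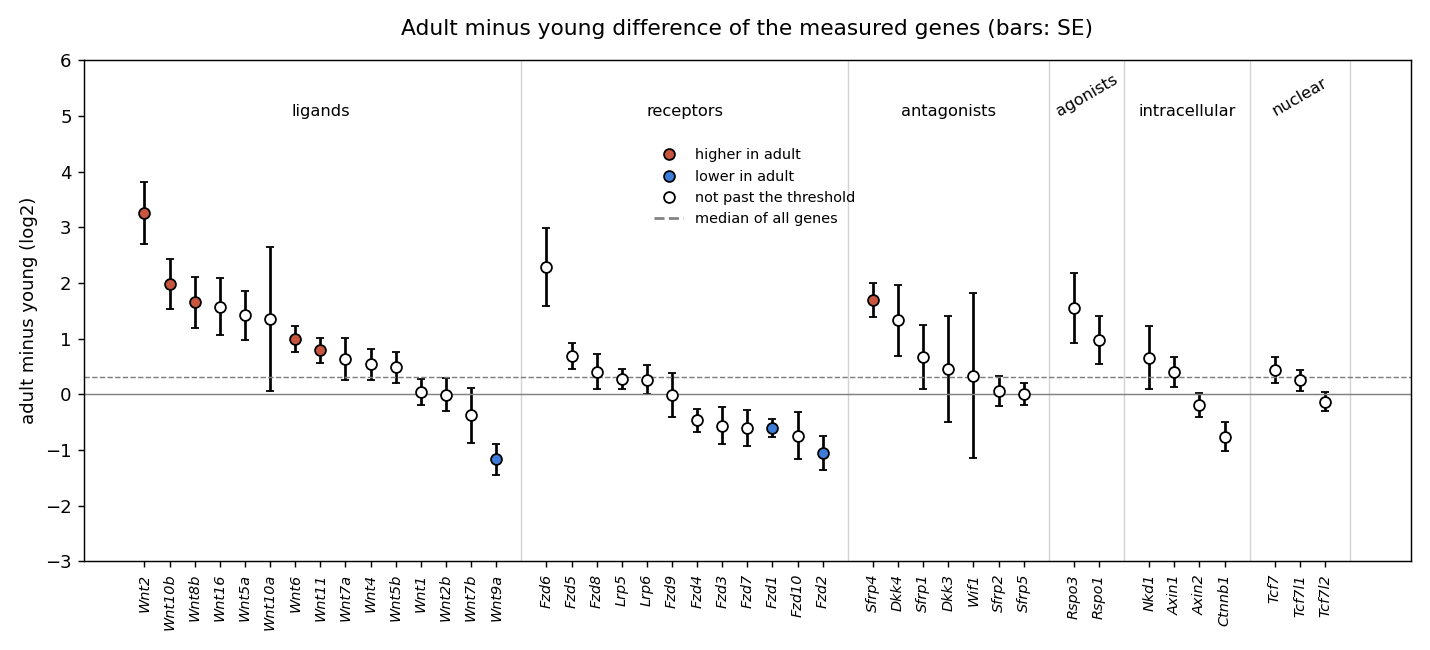
Adult minus young difference (log2, vertical axis) of the 43 measured genes, ordered by size within each class; points are limma estimates, bars 1 SE with 3 arrays a group, filled points passed the test, and the dashed line is the median of all genes at 0.31. The ligands reach from -1.17 (Wnt9a) to 3.26 (Wnt2, fitted on young readings below the background limit), and 7 of the 10 Frizzled receptors lie below 0, Fzd9 (-0.015) so narrowly that it lay above 0 when scaled on the probes detected on all arrays.

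Direction was read against the whole array, because the median difference of all genes was 0.31 and not 0, while that of the genes with a gene symbol was -0.031. Differences were positive in 29 and negative in 14 of the 43 genes (67.44% positive, beside 59.43% of all genes and 49.05% of those with a symbol). Their median of 0.41 is 0.10 above that of all genes and 0.44 above that of genes with a symbol. With quantile normalization the 3 medians were 0.068, -0.061 and -0.25, and with median scaling -0.13, -0.24 and -0.57. The groups did not overlap in 16 of the 43, 11 higher and 5 lower in adult, beside 55.6% of all genes (34.0% higher, 21.6% lower). Dim genes differed most over the whole array: the median difference of all genes was 1.44 in the dimmest of 4 equal bins by mean level, then 0.56, -0.048 and -0.31 in the bins above it. The medians of the Wnt pathway genes in the same bins were 0.82 (12 genes), 0.66 (13), 0.052 (13) and -0.13 (5). Wnt2 and Wnt10b lay in the dimmest bin, where 31.99% of all genes were called higher. Fzd1, Sfrp4, Wnt11 and Wnt8b lay in the bin above it, where 23.02% were called higher and 3.431% lower, and Fzd2, Wnt6 and Wnt9a in the next, where 14.84% were higher and 10.63% lower.

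The sorted cells carried the markers of their label: all 12 satellite cell markers, Pax7 and Itga7 among them, were well above background on all arrays, and 6 of them were lower in adult. The 12 together had a summed signal of 165.9 to 184.1 times the array's 75th percentile in young and 120.5 to 156.2 in adult. Fewer cells of one type and less RNA per cell cannot be told apart in such bulk samples. Genes of dividing and differentiating myogenic cells were higher in young: of 9 such markers 7 were lower in adult (sum 22.64 to 26.81 in young, 6.788 to 8.063 in adult). Myog, the factor of myogenic differentiation, was 37.8-fold lower in adult (limma adjusted p = 0.00843), Mymk, a factor of myoblast fusion, 13.2-fold (0.00843), and the division marker Mki67 12.9-fold (0.0151), although a second Mki67 probe differed by 0.067.

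Markers of other cells moved as well, in lists whose sums were often carried by 1 bright probe. Beside the counts that follow, 20.0% of all genes were called higher and 8.43% lower. Of 11 markers of pericytes and smooth muscle 5 were higher and 1 lower. Their sum was 259.7 to 355 in young and 318.2 to 394.5 in adult, but Mcam made up 67.62% to 79.49% of it. Without Mcam the ranges overlapped (66.25 to 84.08 in young, 74.61 to 80.9 in adult). Mcam differed by 0.33 at its bright probe and by -0.57 at its other probe. Of these markers, Kcnj8, a potassium channel of pericytes, was 11.98-fold higher (limma adjusted p = 0.0123), Abcc9 5.17-fold (0.0300) and Pdgfrb 4.38-fold (0.0249), while the actin gene Acta2 fell 4.30-fold (0.00920). Of 12 leukocyte markers 3 were higher. Among them is Tyrobp, counted with the reservation made for Wnt2: it passed the filter through its adult arrays alone, and its test rests on young readings below the background limit. The sum of all 12, 220 to 425.6 in young and 379 to 403.4 in adult, was 95.62% to 97.60% Itgam. Without Itgam the sum was 8.195 to 10.22 in young and 13.16 to 14.06 in adult. Itgam differed by 0.39 at this bright probe and by 1.46 at each of its other probes (limma adjusted p = 0.03615 and 0.07054 over all probes). Tyrobp, a signalling adaptor of myeloid cells, was not well above background on any young array. Its adult mean was 31.2-fold above the lowest signals counted as well above background on the young arrays, which is an approximate bound. Adgre1, a macrophage receptor, was 4.99-fold higher (limma adjusted p = 0.0263).

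Of 5 measured adipocyte markers of 6 all but 1 were higher (sum 1.405 to 1.698 in young, 3.154 to 4.222 in adult), led by Adipoq at 8.79-fold (limma adjusted p = 0.00843), with Lep not measured. Of 9 measured fibro-adipogenic markers of 10, 2 were higher and 2 lower (74.36 to 80.89 and 29.05 to 44.31), and Pdgfra was not measured. Col3a1 made up 68.41% to 87.5% of that sum, and without it the ranges overlapped (11.05 to 19.62 in young, 5.43 to 11.17 in adult). Of 12 myofibre markers 1 was higher and 4 lower (36.63 to 52.82 and 19.66 to 25.4), of 10 endothelial markers 1 was higher (19.44 to 30.57 and 19.42 to 27.34), and of 4 measured tendon markers 1 was lower (4.67 to 9.229 and 1.956 to 4.081). Without Atp2a1, the brightest, the myofibre sums were 9.989 to 13.94 and 6.794 to 8.51. Without Scx, the brightest, the tendon sums overlapped (0.7861 to 5.854 and 0.2886 to 1.901). Of 7 measured Schwann cell markers 0 passed by limma (0 at an unadjusted p under 0.05). The negative gate was directed at endothelial cells (CD31), leukocytes (CD45 and CD11b) and cells with Sca1, such as fibro-adipogenic progenitors, and it holds no marker of pericytes, tendon cells, Schwann cells or muscle fibres. The part of other cells in the differences described here was not tested.

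Wnt ligands, the largest class, had the most calls: of 19 ligand genes 15 were measured, 5 rose, 1 fell and 9 did not pass. Thus 40% passed, beside 28.5% of all genes (20.0% higher, 8.43% lower). Their median difference was 0.79, which is 0.49 above that of all genes and 0.82 above that of genes with a symbol. Among the 5, Wnt2 is counted with the reservation above, and it and Wnt10b lay in the dimmest bin, where 31.99% of all genes were called higher. Wnt2, a ligand best known from lung and placental development, stood at -7.17, -7.62 and -7.77 on the young arrays and -3.03, -5.17 and -4.58 on the adult arrays. Every adult value lay above every young one, but the probe (mm9 chr6:17938994-17939053) was not well above background on any young array. Only an approximate bound can therefore be given, which on this scale was 2.17-fold higher in adult. The bound sets the adult mean against the lowest signal counted as well above background on each young array. Readings that are not counted so can lie above that signal, so the bound is not strict. The fitted difference of 3.26 ± 0.56 SE and its limma adjusted p of 0.0224 rest on young readings below that limit and give no support beyond the bound. With normexp background correction, which adds an offset of 50 to every signal, and quantile normalization, the difference was 0.39 (limma adjusted p = 0.203).

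Wnt10b, a canonical ligand known for favouring the myogenic over the adipogenic fate, stood at -4.77, -6.12 and -5.33 on the young arrays and -2.99, -3.21 and -4.08 on the adult arrays. The adult arrays were all higher, by 1.98 ± 0.45 SE (limma adjusted p = 0.0309), and the size is uncertain because only 2 of the 3 young arrays were well above background at this probe (mm9 chr15:98602209-98602268). The scaling decided it too: the difference was 0.74 with quantile normalization, 0.76 with cyclic loess and 0.20 with normexp and quantile normalization, and it did not pass in any of these or under median scaling (1.44). Wnt8b, a ligand of the developing forebrain, stood at -4.42, -2.93 and -4.09 on the young arrays and -1.76, -1.99 and -2.75 on the adult arrays, a rise of 1.65 ± 0.47 SE at mm9 chr19:44588615-44588674 (limma adjusted p = 0.0463). Its rise was seen by 1 of its 2 probes only, as described below.

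Wnt6 and Wnt11 rose with groups that were clearly apart and with every array well above background. Wnt6, a ligand expressed in the ectoderm over the somites during development, stood at -1.26, -1.22 and -1.58 on the young arrays and -0.0026, -0.45 and -0.62 on the adult arrays (mm9 chr1:74831461-74831520). It was 1.997-fold higher in adult, a difference of 0.9977 ± 0.24 SE (limma adjusted p = 0.0332). Wnt11, which acts mainly on cell polarity and movement, stood at -1.63, -1.72 and -1.94 on the young arrays and -1.01, -1.25 and -0.66 on the adult arrays (mm9 chr7:106001985-106002045). It was 1.73-fold higher, a difference of 0.79 ± 0.22 SE (limma adjusted p = 0.0461).

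Wnt9a was the ligand that fell. Its level was -0.67, -0.85 and -0.057 on the young arrays and -1.95, -1.62 and -1.53 on the adult arrays, so that each adult array lay below each young one. The fall was 2.25-fold, or -1.17 ± 0.27 SE (mm9 chr11:59146953-59147012, limma adjusted p = 0.0323). This ligand is known from joint and skeletal development.

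**Figure D2:**
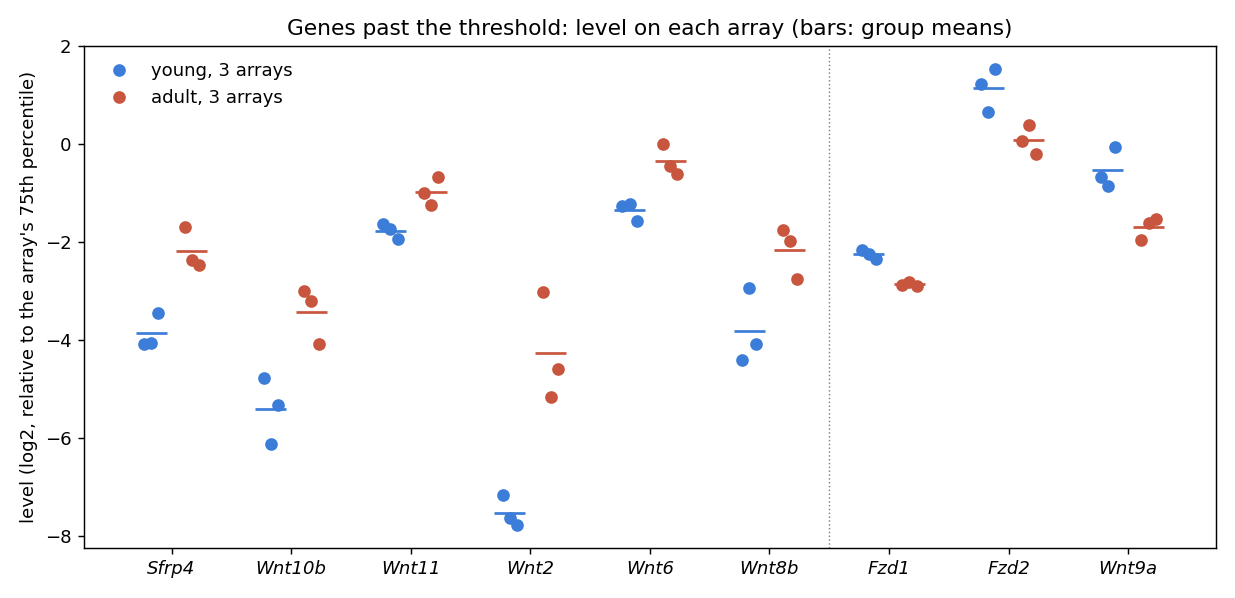
Level of each of the 9 genes that passed the test on each of the 6 arrays (log2, with the 75th percentile of its array set to 0, vertical axis), young in blue and adult in red, with bars at the group means; genes left of the dotted line rose and those right of it fell. In all 9 genes the 3 adult points lie entirely above or entirely below the 3 young points, with the smallest gap in Wnt8b (-2.93 against -2.75); no young point of Wnt2 is well above background.

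Among ligands well known in muscle stem cells, Wnt7a, Wnt4 and Wnt5a did not pass and Wnt3a was not measured. Wnt7a, which drives symmetric expansion of satellite cells through Fzd7, stood at -0.74, -1.44 and -0.013 on the young arrays and 0.031, -0.21 and -0.11 on the adult arrays. Young replicate 3 lay among the adult values, and the difference was 0.63 ± 0.37 SE (95% interval -0.28 to 1.54, limma adjusted p = 0.218). Wnt4, a ligand made by muscle fibres and linked to satellite cell quiescence, stood at -0.70, -1.0017 and -0.58 on the young arrays and 0.013, 0.059 and -0.74 on the adult arrays. Adult replicates 1 and 2 were higher than every young array and replicate 3 was within the young range, for a difference of 0.54 ± 0.28 SE (limma adjusted p = 0.176), which was -0.0032 under median scaling.

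Wnt5a, the main ligand of the beta-catenin-independent branch, stood at -2.69, -1.99 and -2.95 on the young arrays and -0.32, -1.55 and -1.52 on the adult arrays. The groups did not overlap, but the difference of 1.42 ± 0.43 SE narrowly missed the threshold (limma adjusted p = 0.0545; 0.0485 without young replicate 2, and 0.0485 to 0.134 over the fits that leave out 1 array). Wnt3a, the ligand most used to activate beta-catenin in culture, was not well above background on any of the 6 arrays, and its readings were -7.13, -7.56 and -6.92 on the young arrays and -6.86, -7.40 and -6.78 on the adult arrays. No direction or size can be given for it.

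The other measured ligands did not pass. Wnt16 came close, as described with its second probe below. Wnt10a (1.35), Wnt5b (0.49), and Wnt1 (0.040) had positive and Wnt7b (-0.38) and Wnt2b (-0.0057) negative differences, of which those of Wnt5b and Wnt1 turned negative under median scaling and that of Wnt2b positive when scaled on the probes detected on all arrays. Wnt10a was the least even: 2 of its adult arrays read -2.84 and -3.49 and the third -7.60, against -6.86 to -5.01 in young. Wnt3, Wnt8a and Wnt9b, like Wnt3a, were not measured.

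Several Wnt genes stand next to each other on the chromosomes, and 4 pairs of Wnt genes had probes within 200 kb on mm9. In the pair Wnt6 and Wnt10a on chromosome 1 (19.1 kb apart, same strand), Wnt6 rose by 0.998, and Wnt10a, at 1.35, did not pass. In the pair Wnt10b and Wnt1 on chromosome 15 (21.9 kb apart, opposite strands), Wnt10b rose by 1.98 while Wnt1 differed by 0.040 ± 0.24 SE. In the pair Wnt3a and Wnt9a on chromosome 11 (85.3 kb apart), Wnt9a fell and Wnt3a was not measured. Neither gene of the fourth pair, Wnt9b and Wnt3, was measured. In no pair did both genes pass.

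All 12 receptor genes were measured, 10 of them Frizzled receptors, which are membrane proteins that bind the ligands. Of the 10 Frizzled receptors 2 fell, 8 did not pass and 0 rose by limma (2 with a positive difference at an unadjusted p under 0.05). Over all genes 8.43% were lower and 20.0% higher. Fzd2 and Fzd7 are counted by their brighter probes, which were negative, while their dimmer probes differed by 0.47 and 0.23, as described below. Their median difference was -0.52, which is 0.82 below that of all genes and 0.49 below that of genes with a symbol, and 7 of the 10 differences were negative (beside 40.57% of all genes and 50.95% of those with a symbol), although Fzd9 (-0.015) turned positive when scaled on the probes detected on all arrays and Fzd8 (0.41) turned negative under 4 of the other 5 scalings.

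Fzd1 and Fzd2 are receptors that can pass on the canonical signal. Fzd1 stood at -2.15, -2.25 and -2.35 on the young arrays and -2.87, -2.81 and -2.89 on the adult arrays. The arrays of each group lay close together, and the groups were apart by a 1.52-fold fall in adult (-0.61 ± 0.17 SE, mm9 chr5:4754003-4754062, limma adjusted p = 0.0438). Fzd2, by the brighter of its 2 probes, stood at 1.23, 0.66 and 1.54 on the young arrays and 0.072, 0.39 and -0.20 on the adult arrays. It was 2.08-fold lower in adult (-1.06 ± 0.30 SE, limma adjusted p = 0.0458), with every adult array below every young one.

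Fzd4 and Fzd7 did not pass. Fzd4, which also serves as receptor for norrin in blood vessels, stood at 2.78, 2.47 and 2.83 on the young arrays and 2.29, 2.01 and 2.37 on the adult arrays. The groups did not overlap, with a difference of -0.47 ± 0.20 SE (limma adjusted p = 0.118). Fzd7, the receptor of Wnt7a on satellite cells, stood at -2.20, -2.27 and -2.15 on the young arrays and -2.14, -3.25 and -3.04 on the adult arrays. Adult replicate 1 read like the young arrays and adult replicates 2 and 3 read lower, for a difference of -0.60 ± 0.32 SE (limma adjusted p = 0.179).

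The largest receptor difference belonged to Fzd6, a receptor of the polarity branch, at -4.48, -4.83 and -6.68 on the young arrays and -3.99, -2.85 and -2.28 on the adult arrays. All adult arrays were higher, but the young arrays spread widely, 1 of them was not well above background, and the difference of 2.29 ± 0.71 SE missed the threshold (limma adjusted p = 0.0553). The differences of the other Frizzled receptors that did not pass ran from -0.75 (Fzd10) to 0.69 (Fzd5). Lrp5 and Lrp6 are the co-receptors of the canonical branch, and the groups did not overlap in Lrp5 but did in Lrp6. Lrp5 stood at 1.35, 1.18 and 0.99 on the young arrays and 1.54, 1.46 and 1.35 on the adult arrays and Lrp6 at 4.02, 4.43 and 4.78 on the young arrays and 4.91, 4.70 and 4.41 on the adult arrays. Their differences of 0.28 ± 0.18 SE and 0.26 ± 0.27 SE (95% intervals -0.17 to 0.73 and -0.39 to 0.91) did not pass and turned negative under median scaling.

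The 2 probes of Fzd2 disagreed. The dimmer probe stood at -2.74, -2.44 and -2.14 on the young arrays and -1.69, -2.27 and -1.94 on the adult arrays, a difference of 0.47 ± 0.26 SE with the opposite sign (limma adjusted p = 0.199 over all probes, of which 23.4% passed). Fzd7 showed the same split, since its dimmer probe stood at -2.22, -3.87 and -2.77 on the young arrays and -2.63, -2.46 and -3.10 on the adult arrays, a difference of 0.23 ± 0.46 SE (limma adjusted p = 0.713 over all probes). The brighter probes of Fzd2 and Fzd7, which gave the values above, lie in a stretch that is much alike in the 2 receptors. They are printed here as deposited (plus strand, mm9), with the bases they share in capitals.
Fzd2, chr11:102467613-102467672: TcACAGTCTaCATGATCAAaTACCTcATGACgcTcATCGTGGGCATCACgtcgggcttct
Fzd7, chr1:59541367-59541426: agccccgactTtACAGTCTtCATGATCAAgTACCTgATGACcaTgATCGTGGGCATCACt
When slid along each other, 42 of the 50 overlapping bases (84.0%) were the same, the most shared bases among 2066 pairs of probes of different genes compared here. No stop codon interrupts 2 of the 3 reading frames of either sequence. How far transcripts of one gene bound the probe of the other was not tested.

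Of the 10 genes with more than 1 probe past the filter, 6 had differences of the same sign at each of these probes and 4 did not (Fzd2, Fzd7, Nkd1 and Tcf7). Fzd5, a receptor of the canonical branch, had positive differences at both probes but of different size. Its brighter probe stood at -0.19, -0.48 and 0.056 on the young arrays and 0.63, 0.64 and 0.18 on the adult arrays, a difference of 0.69 ± 0.24 SE that did not pass (limma adjusted p = 0.0693), and its dimmer probe differed by 2.04 ± 0.45 SE (limma adjusted p = 0.0330 over all probes). Wnt16, a ligand known from bone and from blood stem cell development, stood at -3.02, -2.72 and -4.58 on the young arrays and -2.16, -1.75 and -1.69 on the adult arrays by its brighter probe. That difference of 1.58 ± 0.51 SE did not pass (limma adjusted p = 0.0614), while the dimmer probe, at -5.61, -4.30 and -4.66 on the young arrays and -3.14, -2.68 and -2.60 on the adult arrays, differed by 2.05 ± 0.38 SE (limma adjusted p = 0.0269 over all probes).

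In Wnt8b the call rests on the brighter probe alone. Its dimmer probe stood at -4.81, -4.59 and -4.56 on the young arrays and -4.10, -4.23 and -5.18 on the adult arrays, with overlapping groups and a difference of 0.15 ± 0.33 SE (limma adjusted p = 0.739 over all probes). In the fit over all probes the brighter probes of Wnt8b and Fzd2 had an adjusted p of 0.0508 and 0.0513, just above the threshold. The probes concerned, each with at least 2 reading frames free of stop codons, are shown as deposited, for the genes in which the choice of probe decides the size or the call.
Fzd5, brighter probe, chr1:64781972-64782030, minus strand: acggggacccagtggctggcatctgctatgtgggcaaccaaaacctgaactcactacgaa
Wnt8b, dimmer probe, chr19:44585759-44585818, plus strand: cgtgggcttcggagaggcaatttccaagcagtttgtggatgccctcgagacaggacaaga
Wnt16, dimmer probe, chr6:22241135-22241194, plus strand: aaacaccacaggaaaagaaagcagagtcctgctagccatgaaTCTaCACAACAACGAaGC
The capitals in the Wnt16 probe are bases that also occur at the start of the Wnt4 probe, where 16 of 18 overlapping bases (88.9%) were the same. The 60 bases of the Wnt4 probe span 569 bases of the genome, as those of a probe across an intron do.
Wnt4, chr4:136851690-136852258, plus strand: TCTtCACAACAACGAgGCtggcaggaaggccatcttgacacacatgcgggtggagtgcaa

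**Figure D3:**
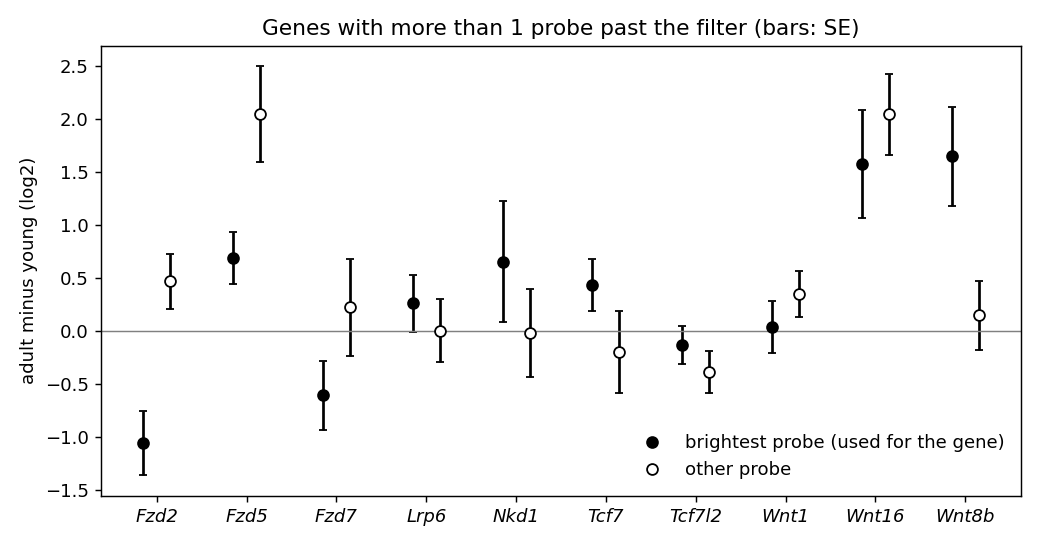
Adult minus young difference (log2, vertical axis) at each probe of the 10 genes with more than 1 probe past the filter; filled circles are the brightest probe, open circles another probe, and bars 1 SE from limma with 3 arrays a group. In Fzd2 the brighter probe lies at -1.06 and the other at 0.47, and in Fzd5 both lie above 0, at 0.69 and 2.04.

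Of the 9 secreted antagonists 7 were measured, 1 rose (14.29%, beside 20.0% of all genes) and 6 did not pass. Their median difference of 0.46 is 0.155 above that of all genes and 0.49 above that of genes with a symbol. Sfrp4, a secreted Frizzled-related protein that binds Wnt ligands, stood at -4.08, -4.07 and -3.44 on the young arrays and -1.70, -2.36 and -2.46 on the adult arrays. All 3 adult arrays were higher, by 3.23-fold (1.69 ± 0.30 SE, mm9 chr13:19724488-19724547, limma adjusted p = 0.0237), and all 6 arrays were well above background. Sfrp2, made by muscle progenitors during regeneration, stood at -0.35, -0.71 and -0.56 on the young arrays and -0.54, -0.88 and -0.043 on the adult arrays, with overlapping groups and a difference of 0.052 ± 0.27 SE (95% interval -0.60 to 0.70).

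Dim and uneven readings marked the other antagonists. Sfrp1 stood at -4.80, -4.66 and -6.53 on the young arrays and -4.93, -4.03 and -5.02 on the adult arrays, well above background on 2 arrays of each group, with a difference of 0.67 ± 0.57 SE (limma adjusted p = 0.373) that was negative in 3 of the other 5 scalings. Dkk3, a divergent Dkk family member, stood at -4.70, -4.12 and -7.26 on the young arrays and -4.14, -6.16 and -4.40 on the adult arrays. Young replicate 3 and adult replicate 2 read low, and without young replicate 3 the difference of 0.46 ± 0.95 SE became -0.49. Wif1, a secreted Wnt inhibitory factor, stood at -7.14, -1.87 and -5.27 on the young arrays and -6.32, -3.65 and -3.30 on the adult arrays. Its young arrays alone ran from -7.14 to -1.87, so its difference of 0.33 ± 1.48 SE carries no direction. Sfrp5 (-0.0020) and Dkk4 (1.33) did not pass either.

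Dkk1, the best known inhibitor of Lrp5 and Lrp6, was not measured: no young array and 1 adult array was well above background. Its readings were -7.26, -7.66 and -7.43 on the young arrays and -6.44, -5.63 and -3.05 on the adult arrays, of which adult replicate 3 alone was above the background limit, so no fold is given. Dkk2 was likewise seen on 1 adult array only.

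Rspo1 and Rspo3, the 2 measured R-spondins of 4, did not pass, and neither was well above background on more than 1 young array. Rspo1, which binds Lgr receptors, stood at -5.55, -4.43 and -5.59 on the young arrays and -4.19, -3.67 and -4.77 on the adult arrays, a difference of 0.98 ± 0.43 SE (limma adjusted p = 0.123) that was negative in 3 of the other 5 scalings. Rspo3 stood at -5.63, -3.92 and -5.79 on the young arrays and -3.45, -4.38 and -2.85 on the adult arrays, a difference of 1.56 ± 0.63 SE (limma adjusted p = 0.100). Young replicate 2 lay among the adult arrays and was the only young array well above background at this probe. Without it the limma adjusted p was 0.0323 (0.0323 to 0.251 over the fits that leave out 1 array). That fit rests on young readings below the background limit and gives no support for a rise. Rspo2 was seen on 1 adult array and Rspo4 on none.

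Inside the cell, Ctnnb1, Axin1, Axin2 and Nkd1 were all measured and 0 passed by limma (1 at an unadjusted p under 0.05). Beta-catenin, encoded by Ctnnb1, stood at 2.53, 2.60 and 2.96 on the young arrays and 2.25, 2.03 and 1.53 on the adult arrays. Every adult array was lower than every young one, and the difference of -0.76 ± 0.26 SE missed the threshold (limma adjusted p = 0.0679). Axin2 and Nkd1 restrain the pathway and are themselves induced by beta-catenin signalling in many tissues, so they are often read as its reporters. Axin2 stood at -2.39, -2.51 and -2.23 on the young arrays and -2.83, -2.58 and -2.27 on the adult arrays, with overlapping groups and a difference of -0.19 ± 0.22 SE (95% interval -0.71 to 0.34, limma adjusted p = 0.509). Nkd1 stood at -3.27, -2.69 and -3.33 on the young arrays and -3.46, -2.61 and -1.26 on the adult arrays, where adult replicate 3 was high and the others overlapped, for a difference of 0.66 ± 0.57 SE (limma adjusted p = 0.381). Its dimmer probe gave -0.017 ± 0.42 SE.

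The nuclear factors did not pass either: of Lef1, Tcf7, Tcf7l1 and Tcf7l2, 3 were measured and 0 passed (0 at an unadjusted p under 0.05). Tcf7, which encodes TCF1, stood at -2.32, -2.05 and -1.69 on the young arrays and -1.81, -1.57 and -1.37 on the adult arrays, a difference of 0.44 ± 0.24 SE that turned negative under quantile normalization and median scaling, and its dimmer probe gave -0.20 ± 0.39 SE. Tcf7l1, which acts mostly as a repressor, stood at -1.73, -1.29 and -1.48 on the young arrays and -1.15, -1.29 and -1.32 on the adult arrays, a difference of 0.25 ± 0.19 SE that turned negative under the same scalings. Tcf7l2, also expressed in connective tissue fibroblasts of muscle, stood at 1.86, 1.61 and 1.74 on the young arrays and 1.63, 1.54 and 1.64 on the adult arrays. Its difference of -0.13 ± 0.17 SE (95% interval -0.55 to 0.28) turned positive under 4 of the other 5 scalings. Lef1 was not measured: 1 of its probes stood at -7.15, -6.17 and -6.28 on the young arrays and -6.30, -3.64 and -1.93 on the adult arrays, above background on 2 adult arrays and no young one, and the other was above background on 1 array of each group.

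**Figure D4:**
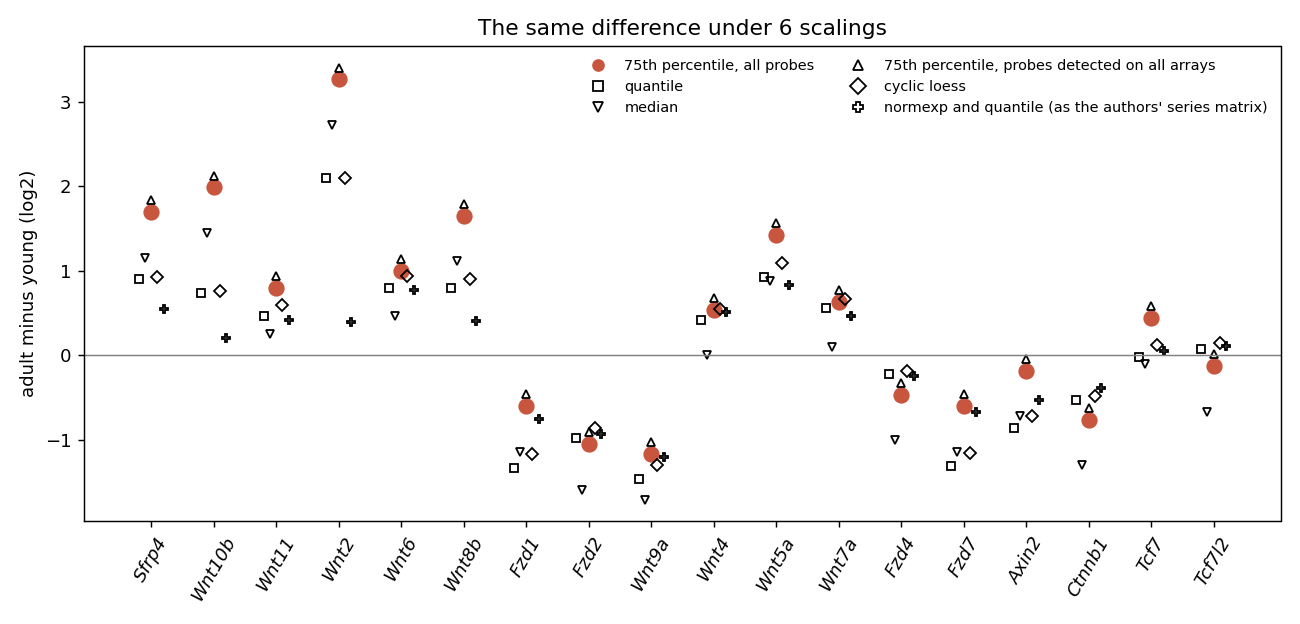
Adult minus young difference (log2, vertical axis) of the 9 genes that passed and 9 others under 6 scalings of the same arrays; filled circles are the values given in the text. Each of the 9 genes on the left keeps its sign in all 6, whereas Wnt4, Tcf7 and Tcf7l2 cross 0.

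The 9 genes that passed kept their sign under each of the 6 scalings tried, but not their calls or sizes. The authors' series matrix held the same values as normexp with quantile normalization and is counted with it. Wnt9a passed under all 6, Fzd1 under 5, Wnt6 under 4, Fzd2 and Sfrp4 under 3, and Wnt8b, Wnt10b and Wnt11 under 2. Wnt2 passed under 4, each time on young readings below the background limit, so these calls add no support. The differences of those that fell ran from -1.71 to -1.03 (Wnt9a), -1.60 to -0.86 (Fzd2) and -1.34 to -0.47 (Fzd1). Those of the genes that rose ran from 0.39 to 3.40 for Wnt2, 0.20 to 2.12 for Wnt10b, 0.54 to 1.83 for Sfrp4, 0.40 to 1.79 for Wnt8b, 0.46 to 1.14 for Wnt6 and 0.25 to 0.93 for Wnt11. Normexp with quantile normalization gave the lowest values of Wnt2, Wnt10b, Sfrp4 and Wnt8b, and median scaling those of Wnt6 and Wnt11. Quantile normalization gave 0 higher (4 at an unadjusted p under 0.05) and 4 lower Wnt pathway genes by limma, median scaling 2 and 7, and scaling on the probes detected on all arrays 9 and 1. Over all genes the same scalings gave 2867 higher and 2773 lower, 3447 and 8806, and 7889 and 1782, against 6427 and 2704 here, and their medians of all genes were -0.061, -0.24 and 0.45.

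With 3 arrays a group, single arrays also decided calls. None of the 9 passed in all 6 fits that leave out 1 array: Sfrp4 passed in 2, Wnt10b, Wnt8b, Wnt9a and Fzd2 in 1, and Fzd1, Wnt6 and Wnt11 in 0. Wnt2 passed in 3, but these fits rest on young readings below the background limit and do not show a steadier call. Without young replicate 2, the youngest sample, 7 were higher and 3 lower. Without young replicate 1, 0 passed by limma (9 higher and 4 lower at an unadjusted p under 0.05), and without adult replicate 3 also 0 (11 higher and 3 lower). Leaving out young replicate 3 left Sfrp4 as the only call among the 43. Leaving out adult replicate 1 or adult replicate 2 left only Wnt2, whose test gives no support beyond the bound. All genes followed the same course, with 7684 calls without young replicate 2 and 297 to 2370 without 1 of the others. The arrays lay in 2 rows of the slide, each with both groups. The groups of the 8 called genes other than Wnt2 did not overlap, so their sign within a row was fixed in advance. In the first and the second row the differences were 2.38 and 1.03 for Sfrp4, 1.24 and 1.05 for Wnt6, -1.19 and -1.52 for Wnt9a and -0.87 and -1.44 for Fzd2.

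Of 117 further pathway genes in 7 lists 109 were measured, of which 8 rose, 13 fell and 88 did not pass, beside 20.0% and 8.43% of all genes. Their median difference was -0.29, which is 0.59 below that of all genes and 0.25 below that of genes with a symbol, and 74 of 109 were negative (67.89%, beside 40.57% of all genes and 50.95% of those with a symbol). Under median scaling 1 rose and 55 fell. Among the 10 measured antagonists outside the rule above, 3 rose and 0 fell by limma (0 at an unadjusted p under 0.05). Frzb, a secreted Frizzled-related protein also called Sfrp3, stood at -7.25, -5.05 and -5.08 on the young arrays and -2.86, -3.30 and -3.76 on the adult arrays. The adult arrays were all higher, by 2.49 ± 0.65 SE (limma adjusted p = 0.0391), with 2 of 3 young arrays well above background. Draxin, a neural guidance protein that binds Lrp6, rose by 1.07 ± 0.28 SE (0.52 at its other probe), and Cer1, a secreted inhibitor of Wnt, Nodal and BMP ligands, by 2.95 ± 0.81 SE, the latter with 1 of 3 young arrays above background.

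Receptors outside the Frizzled family moved both ways, with 1 higher and 2 lower of 11 measured (27.27% passed, beside 28.5% of all genes). Tspan12, a tetraspanin that aids Fzd4 signalling, was lower (difference -1.28 ± 0.24 SE), as was Ryk, a Wnt receptor related to tyrosine kinases (-0.89 ± 0.22 SE), while Adgra2, a co-activator of Wnt7 signalling in vessels, was higher by 0.82 ± 0.20 SE. Of 8 genes of ligand lipidation, export and removal, 1 fell: Porcn, the enzyme that attaches the lipid to Wnt ligands, at -0.41, -0.82 and -0.46 on the young arrays and -1.35, -1.15 and -1.22 on the adult arrays (difference -0.68 ± 0.20 SE, limma adjusted p = 0.0478). Of 21 genes of Dishevelled and the destruction complex 2 fell, the casein kinases Csnk1a1 (-0.72 ± 0.18 SE; -1.12 at its other probe) and Csnk1e (-0.64 ± 0.18 SE). Csnk1e has other probes at 0.021 and -0.42. In the list of lipidation, export and removal 12.5% were lower, and in that of the destruction complex 9.524%, beside 8.43% of all genes and 12.2% of those with a symbol.

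Among 18 measured nuclear partners of beta-catenin and TCF, 1 rose and 3 fell (22.22% passed, beside 28.5% of all genes). Bcl9l, which links beta-catenin to the transcription machinery, rose by 1.08 ± 0.24 SE. Of those that fell, Cby1 (-1.17 ± 0.30 SE) and Ctnnbip1 (-0.86 ± 0.19 SE) bind beta-catenin and inhibit it, and Tle5 (-0.75 ± 0.22 SE; -0.32 at its other probe) is a short member of the Groucho corepressor family. Of 25 polarity and beta-catenin-independent genes 3 fell, namely Rac1 (-0.79 ± 0.17 SE; -0.71 at its other probe), Mapk9 (-0.76 ± 0.17 SE; -0.47) and Vangl2 (-0.76 ± 0.19 SE; -0.35 and -0.30), a core polarity protein that Wnt7a uses in satellite cells. Nfatc4, a calcium-regulated transcription factor, rose (1.49 ± 0.37 SE; 2 of 3 young arrays above background). Thus 16% of these 25 genes passed, again beside 28.5% of all genes.

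Genes often read as targets of beta-catenin did not move one way: of 16 measured, 2 rose and 2 fell (25% passed, beside 28.5% of all genes). Ccnd1, the cell cycle regulator cyclin D1, stood at 4.17, 4.48 and 4.67 on the young arrays and 2.28, 3.48 and 2.50 on the adult arrays, a 3.22-fold fall (-1.69 ± 0.36 SE, limma adjusted p = 0.0285). Ccn4, a matricellular protein first described as Wnt-induced, stood at -0.0002, 0.15 and -0.0044 on the young arrays and -1.07, -0.94 and -1.24 on the adult arrays, a 2.19-fold fall (-1.13 ± 0.18 SE, limma adjusted p = 0.0203; -1.64 at its other probe). Cd44, a hyaluronan receptor, was higher by 1.06 ± 0.29 SE at its brightest probe, while its other probes differed by -0.55 to 1.84. Mmp7, a matrix protease, was higher by 0.73 ± 0.17 SE.

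Promoter sequence was compared with the calls because the TCF and LEF factors act on DNA. RefSeq promoters (GRCm38.p6) were found for 35 of the 52 genes, 44 start sites in all, and the 250 bases before each start were searched on both strands for CTTTG followed by a pair of bases that are each adenine or thymine, letters these factors prefer. At least 1 match was present in 6 of the 44 (13.6%) and in 4874 of 32851 promoters of all genes (14.8%). The 6 belong to Dkk1, Fzd7, Lef1, Tcf7l2, Wnt11 and Wnt5b, of which only Wnt11 passed the test. The promoters of Wnt11, which rose, and Fzd7, which did not pass, are shown with the match in capitals; each starts on the plus strand.
Wnt11, chr7:98834862-98835111: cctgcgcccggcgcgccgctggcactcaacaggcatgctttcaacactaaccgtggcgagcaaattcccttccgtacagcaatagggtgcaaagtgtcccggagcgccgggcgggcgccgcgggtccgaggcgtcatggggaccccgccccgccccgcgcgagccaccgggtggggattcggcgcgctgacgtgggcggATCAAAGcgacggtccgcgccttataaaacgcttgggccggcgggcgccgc
Fzd7, chr1:59481897-59482146: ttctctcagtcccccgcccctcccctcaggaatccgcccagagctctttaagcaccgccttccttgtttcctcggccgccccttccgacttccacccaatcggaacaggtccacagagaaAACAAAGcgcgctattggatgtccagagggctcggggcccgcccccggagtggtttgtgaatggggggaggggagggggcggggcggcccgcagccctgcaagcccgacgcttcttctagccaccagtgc
The match begins at position -51 from the start of Wnt11 and at -130 from that of Fzd7, both times on the strand opposite the gene. A match of these letters describes the sequence only.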

How the data were processed

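The Wnt pathway genes and the lists beside them were chosen with earlier results of these data known. All 6 samples were hybridised singly to Agilent arrays (62976 spots) on 1 slide, and the file headers name Feature Extraction 10.7.3.1 as the reader. The deposited intensity values were the authors' background-subtracted processed signal. The sources used here do not give how the deposited log2 values of the series matrix were made; they lay within 0.000106 of normexp (offset 50) plus quantile normalization of mean and background signals, with a median of 7.56 in every column.

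Control spots (3671) and outlier-flagged spots were dropped, none was saturated, and a probe's spots were averaged. The processed signal was put on the log2 scale and the 75th percentile of each array subtracted. A probe had to be well above background on 3 or more arrays, and each gene was read by its brightest such probe. Gene symbols came from the GRCm38.p6 table through accessions (25734 probes), symbols (2523) or synonyms (445); the name in the file was kept for 26979 probes. Probe positions are the files' own, on mm9; exons and UTRs of mm9 were not used here.

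The test was limma 3.58.1 (lmFit, eBayes) under R 4.3.3 with the package data.table (version 1.17.8), at a Benjamini-Hochberg adjusted p of 0.05. P-values measure the spread between these samples, and the number of arrays limits precision. An exact permutation test of 3 against 3 arrays could not go below 0.1 (two-sided). Values on each array are given for every gene past the threshold and for others named for their roles in muscle or as readouts; other lists give at most 4 genes past the threshold, those with the smallest p, plus Frzb. The 19 alternatives covered scaling, background correction, the filter, the choice of probe, the variance model, blocks and leaving out arrays.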

Additional observations from a re-analysis of the deposited data

How the results depend on the processing

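Of the Wnt pathway genes, 6 rose and 3 fell above. The number that rose was 0 with quantile normalization (limma), 2 with each of median scaling, cyclic loess, normexp and the series matrix, and 10 when moderation used a trend and was robust; the number that fell was 7 with median scaling and 1 with each of scaling on probes detected on all arrays, no filter on dim probes, testing any probe of a gene, and the array row as a block. Of the other pathway genes (8 higher, 13 lower), 5 rose with each of quantile normalization, cyclic loess and the array row block and 1 with median scaling, while 55 fell with median scaling, 8 when scaled on detected probes, 26 with trend and robust moderation and 6 with the array row block. Leaving out 1 array gave 0 to 7 higher and 0 to 3 lower Wnt pathway genes, and 0 to 4 higher and 0 to 7 lower other pathway genes, with fewer samples in each fit. Replicate numbers gave no pairing, since the deviations of young and adult samples with equal numbers had correlations of -0.0025, -0.093 and -0.14. With the replicate block 0 genes passed by limma in any of these counts, with 11 higher and 3 lower Wnt pathway genes and 12 higher and 16 lower other pathway genes at an unadjusted p under 0.05. The planned slide block was not run because there was 1 slide.

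Among the genes given array by array, these alternatives turned signs only in genes that had not passed. Quantile normalization, cyclic loess, and normexp with the series matrix gave -1.08, -0.73 and -0.28 for Dkk3, -0.52, -0.23 and -0.12 for Rspo1, -0.92, -0.52 and -0.24 for Sfrp1, -0.81, -0.88 and -0.31 for Wif1, and 0.068, 0.14 and 0.11 for Tcf7l2, which was at 0.0070 when scaled on detected probes. Quantile normalization also gave -0.060 for Sfrp2 (normexp and series matrix -0.050), -0.12 for Nkd1, -0.022 for Tcf7 and -0.11 for Tcf7l1. Median scaling gave -0.080 for Dkk3, -0.26 for Lrp5, -0.28 for Lrp6, -0.49 for Sfrp2, -0.10 for Tcf7, -0.29 for Tcf7l1, -0.21 for Wif1 and -0.0032 for Wnt4. With the array row block Wif1 stood at -0.011. Leaving out 1 array turned Dkk3 (-0.49 to 1.09), Sfrp2 (-0.17 to 0.25) and Wif1 (-0.85 to 1.78). For all of these, the cause was not tested. Signal over background limits the dim genes, among them Wnt2 and Wnt10b.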
